A study of Danio rerio with 4 samples.

Results

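The 4 zebrafish genes for receptors of vascular endothelial growth factors (VEGF), kdrl (ENSDARG00000105215), kdr (ENSDARG00000017321), flt1 (ENSDARG00000019371) and flt4 (ENSDARG00000104453), were followed across the cell classes and both genotypes of a single cell RNA-seq series. They were chosen by name from the gene column of the files, as 4 of 25432 genes, and all 4 were found there. GFP+ cells had been sorted by flow cytometry from whole embryos at 3 dpf and put through the 10x Genomics 3′ protocol, giving 2 flt1mut libraries (strain label flt1ka604; Tg(kdrl:EGFP)zf531Tg) and 2 WT libraries (Tg(kdrl:EGFP)zf531Tg). Both genotypes carried the reporter, in which the kdrl promoter drives EGFP, so that the promoter of one of the 4 genes chose the cells. According to the study's methods, each library was prepared from pooled embryos. The labels do not describe the flt1ka604 lesion. The study's methods report a premature stop codon in this allele and mutants without a functional soluble or membrane form of Flt1. A count of 3′ tags does not test the lesion. The soluble and the membrane form of Flt1 are counted under 1 symbol here.

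VEGF receptors are receptor tyrosine kinases on the surface of endothelial cells. Kdrl and Kdr pass on the Vegfa signal that drives sprouting and vessel growth. Flt1 binds Vegfa tightly with weak kinase activity and, in its soluble form, keeps the ligand from Kdrl and Kdr. Flt4 binds Vegfc and Vegfd and is known for its part in venous sprouting and in the growth of lymphatic vessels. Neuropilins act as co-receptors for these ligands.

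The libraries held 3261 and 1837 called cells for flt1mut and 1190 and 1389 for WT, with 16828951 to 33837917 unique molecular identifiers (UMIs, one per captured transcript) per library. Filters on genes and mitochondrial UMIs kept 5191 cells, of which 1239 were endothelial by a list of pan-endothelial genes such as cdh5 and tie1 (181 to 394 per library). No pair of libraries shared more than 4 cell barcodes. The endothelial cells were divided into 619 blood endothelial cells, 405 endocardial-like cells, 142 lymphatic-like cells, 19 proliferating-like cells and 54 cells of unnamed subcluster 9. The blood endothelial cells held 237 arterial-like and 163 venous-like cells. The rest of them, 17.9% to 48.3% per library, had no name and lay in subcluster 0 (168 cells) and subcluster 10 (51 cells). Subcluster 10 was shallow, with a median of 790 UMIs per cell, and had 34 of its cells from flt1mut replicate 2. The names rest on marker genes that did not include the receptors. Levels are given as CPM, the UMIs of a gene per 1000000 UMIs of the summed cells of a class in 1 library. Hand2, a transcription factor of the heart, averaged 442 ± 117 CPM in endocardial-like cells and 9.96 ± 12.9 in blood endothelial cells. Prox1a, which directs lymphatic identity, averaged 184 ± 102 CPM in lymphatic-like cells and 17.2 ± 5.36 in blood endothelial cells (SD, n = 4 libraries, for all 4 values). Prox1a was higher still in unnamed subcluster 9, at 682 ± 156 CPM (SD, n = 2 libraries). The lymphatic marker list as a whole overlapped, with 828 to 1487 CPM in lymphatic-like and 564 to 1756 CPM in blood endothelial cells. Since capture differs between genes, levels are compared between classes and not between genes.

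Most receptor UMIs lay in endothelial cells. Of the UMIs in kept cells, the endothelial cells held 91.7% of 10679 for kdrl, 90.6% of 818 for kdr, 92.3% of 2442 for flt1 and 91.4% of 1343 for flt4. Erythrocyte-like cells, in which receptor UMIs serve as a measure of free RNA, averaged 8.12 ± 10.6 CPM of kdrl, 2.31 ± 0.722 of kdr and 3.66 ± 5.06 of flt1 (SD, n = 3 libraries). No flt4 UMI was found in 183 erythrocyte-like cells, which allows up to 0.899 CPM. Outside the endothelium, the mesenchymal and mural-like class had the highest mean level of each receptor, with 244 ± 114 CPM of kdrl, 14.3 ± 7.93 of kdr, 49.5 ± 16.2 of flt1 and 40.6 ± 41.0 of flt4 (SD, n = 4). The same cells held 276 ± 199.6 CPM of cdh5, a cadherin of endothelial junctions.

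The receptors differed in their order of levels over the endothelial classes. Kdrl was highest in venous-like cells (1770.3 ± 532 CPM) and arterial-like cells (1617 ± 482 CPM), lower in endocardial-like cells (578 ± 68.8 CPM) and lowest in lymphatic-like cells (117 ± 48.8 CPM). The venous-like and arterial-like means of kdrl differed by less than 1 SD. Kdr ran from lymphatic-like cells (97.9 ± 46.6 CPM) through arterial-like (78.0 ± 8.04 CPM) and venous-like cells (62.0 ± 29.6 CPM) to endocardial-like cells (39.7 ± 6.52 CPM), and the ranges of each pair of neighbours in this order overlapped. Flt1 was highest in arterial-like cells (436 ± 37.0 CPM), then venous-like (235 ± 68.6 CPM), endocardial-like (166 ± 61.5 CPM) and lymphatic-like cells (26.9 ± 16.8 CPM), where only the venous-like and endocardial-like ranges overlapped. Flt4 was highest in lymphatic-like cells (311 ± 111 CPM), with overlapping ranges in venous-like (133 ± 29.8 CPM) and arterial-like cells (109 ± 24.7 CPM) and a mean of 12.3 ± 5.86 CPM in endocardial-like cells (SD, n = 4 libraries throughout).

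**Figure D1:**
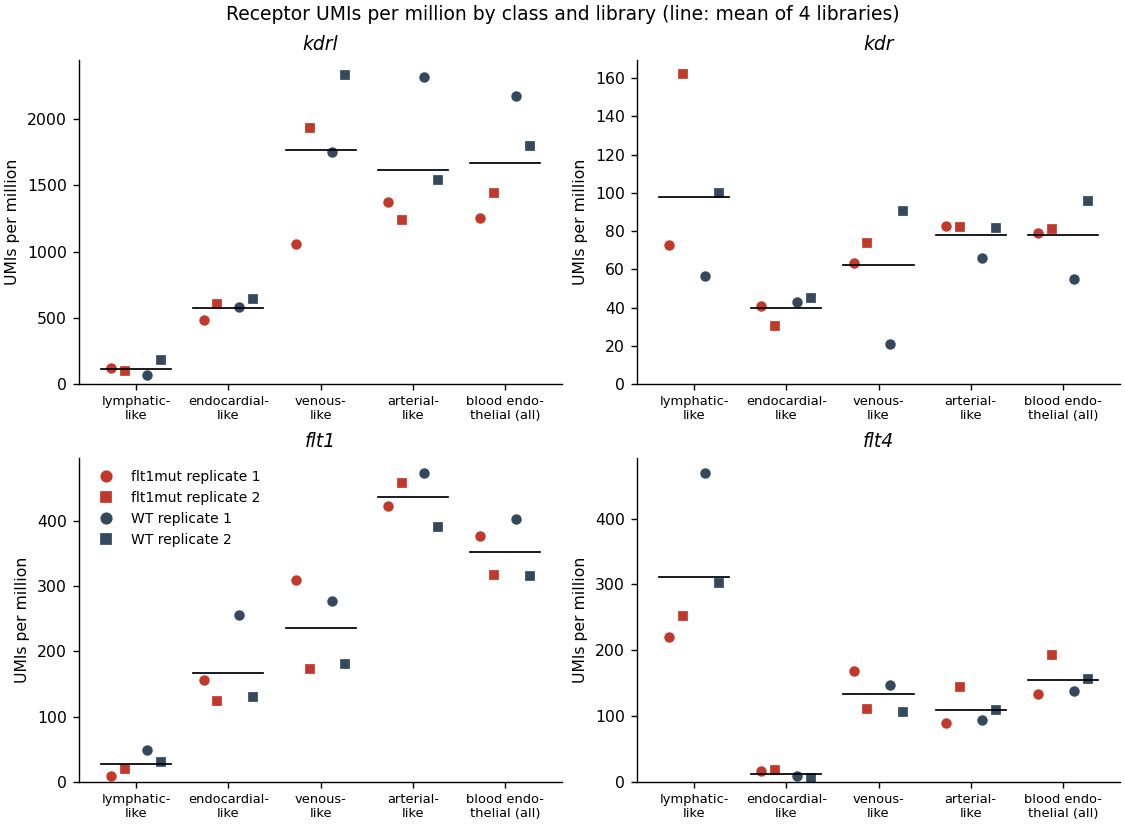
Level of each receptor in CPM, UMIs per 1000000 UMIs (vertical axes from 0) in the summed cells of 5 classes, 1 point per library (red, flt1mut; dark blue, WT; circles, replicate 1; squares, replicate 2), with the mean of the 4 libraries as a line. In lymphatic-like cells kdrl (64.7 to 182 CPM) and flt1 (8.81 to 48.5 CPM) lay below every other class, and flt4 (220.2 to 469 CPM) lay above them.

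To ask how the lymphatic endothelium differs in its receptors, lymphatic-like cells were compared with blood endothelial cells of the same libraries. Kdrl and flt1 were more than 10 times lower in lymphatic-like cells, flt4 was about 2 times higher, and kdr did not pass the test. Pan-endothelial markers also summed to less, 3391 to 5268 CPM in lymphatic-like cells, against 6394 to 8071 CPM in blood endothelial cells. Among them cdh5 averaged 320 ± 75.1 CPM, against 1436 ± 225 CPM (SD, n = 4 libraries). Kdrl had 119 and 101 CPM in flt1mut and 64.7 and 182 CPM in WT lymphatic-like cells, against 1251 and 1445 CPM in flt1mut and 2176 and 1801 CPM in WT blood endothelial cells. Every lymphatic-like value of kdrl was below every blood endothelial value. The log2 fold change of kdrl was -3.69 ± 0.23 (SE; adjusted p = 1.6e-11 by Benjamini-Hochberg over all genes in the quasi-likelihood test of edgeR, which gives all adjusted p-values below).

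Flt1 had 8.81 and 20.3 CPM in flt1mut and 48.5 and 30.0 CPM in WT lymphatic-like cells, from 4, 7, 6 and 18 UMIs, against 377 and 317 CPM in flt1mut and 403 and 315 CPM in WT blood endothelial cells. These groups did not overlap either, with a log2 fold change of -3.84 ± 0.28 (adjusted p = 1.5e-10, edgeR). Flt4 had 220.2 and 252 CPM in flt1mut and 469 and 301 CPM in WT lymphatic-like cells, against 134 and 192 CPM in flt1mut and 139 and 156 CPM in WT blood endothelial cells. All 4 lymphatic-like values of flt4 were above all blood endothelial values, with a log2 fold change of 0.94 ± 0.19 (adjusted p = 7.2e-04, edgeR).

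Kdr had 72.7 and 162 CPM in flt1mut and 56.6 and 99.9 CPM in WT lymphatic-like cells, against 79.0 and 81.3 CPM in flt1mut and 54.8 and 95.9 CPM in WT blood endothelial cells. It was higher in the lymphatic-like cells of 3 of 4 libraries, by a log2 fold change of 0.33 ± 0.22 (adjusted p = 0.38, edgeR). In all, 3 of the 4 receptors passed the test, where 19.4% of 6588 genes did (8.86% higher, 10.5% lower) and 12.6% of the genes that had not served to cluster the cells. The classes were drawn from other genes of the same cells, which raises the share of genes called between them. Erythrocyte markers summed to 6.66 to 421 CPM in lymphatic-like cells (7 of 10 genes with a UMI) and to 16.0 to 651 CPM in blood endothelial cells (8 of 10). Thrombocyte markers, of which fli1b is also on the pan-endothelial list, summed to 252 to 687 CPM in lymphatic-like cells (5 of 7, itga2b and nfe2 at 0). They summed to 269 to 403 CPM in blood endothelial cells (7 of 7). The part of these RNAs in the differences was not tested.

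Endocardial-like cells, which line the heart, were compared with blood endothelial cells in the same way. All 4 receptors were lower in endocardial-like cells, flt4 by far the most. Flt4 had 16.3 and 17.9 CPM in flt1mut and 9.56 and 5.32 CPM in WT endocardial-like cells, from 16, 13, 6 and 7 UMIs, against the 134 to 192 CPM of blood endothelial cells given above. The log2 fold change of flt4 was -3.56 ± 0.24 (adjusted p = 2.3e-08, edgeR). Kdrl had 482 and 606 CPM in flt1mut and 581 and 642 CPM in WT endocardial-like cells, and its log2 fold change was -1.35 ± 0.11 (adjusted p = 1.6e-07, edgeR).

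Flt1 had 156 and 124 CPM in flt1mut and 256 and 130.0 CPM in WT endocardial-like cells, with a log2 fold change of -0.99 ± 0.14 (adjusted p = 5.0e-05, edgeR). Kdr had 40.7 and 30.3 CPM in flt1mut and 43.0 and 44.9 CPM in WT endocardial-like cells, with a log2 fold change of -0.83 ± 0.19 (adjusted p = 0.0034, edgeR). For each receptor, the 4 endocardial-like values lay below all 4 blood endothelial values. The share of all genes without overlap was not counted in this or the other comparisons between classes. Of 8048 genes tested, 27.8% passed, 14.3% on the higher and 13.4% on the lower side, and 20.6% of those not used to cluster. Markers of mesenchymal and mural cells summed to 817 to 1321 CPM in endocardial-like cells (10 of 11 genes with a UMI, acta2 at 0) and to 90.5 to 113 CPM in blood endothelial cells (11 of 11), and their part in these differences was not tested.

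**Figure D2:**
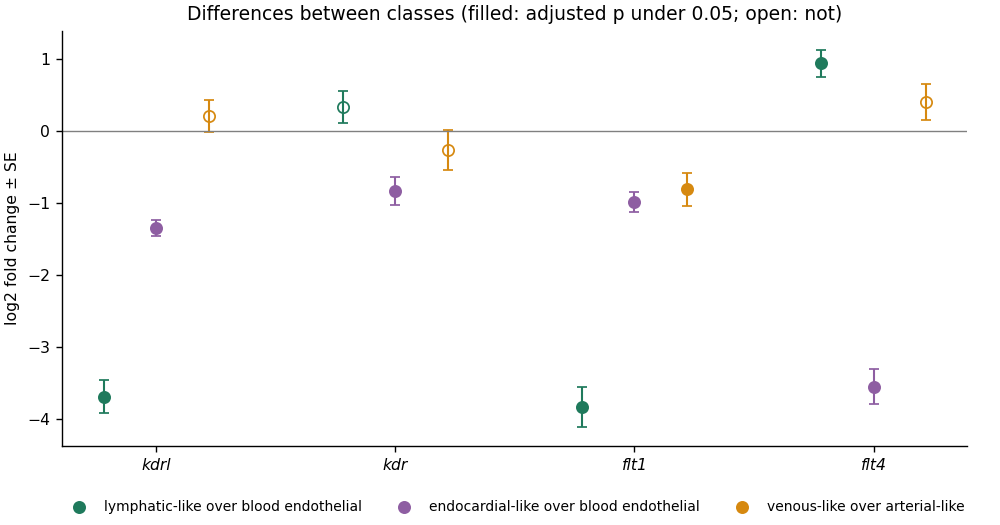
Log2 fold change of each receptor between classes (vertical axis; bars, SE; 4 libraries, library as a block), for lymphatic-like over blood endothelial (green), endocardial-like over blood endothelial (purple) and venous-like over arterial-like cells (orange). Filled points had an adjusted p under 0.05. Kdrl and flt1 were lowest in the lymphatic-like contrast (-3.69 and -3.84), and flt4 was raised there (0.94) and lowered in the endocardial-like contrast (-3.56).

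Within the blood endothelium, venous-like cells were set against arterial-like cells. The venous list summed to 1231 to 2578 CPM in venous-like and 210 to 456 CPM in arterial-like cells. The arterial list summed to 1713 to 2323 CPM in venous-like and 6059 to 8985 CPM in arterial-like cells. Of the venous markers looked at singly, nr2f2 and ephb4a overlapped between these classes, and lyve1b, mrc1a, stab1 and stab2 did not. Flt1 was the receptor that differed, with less of it in venous-like cells. It had 309 and 173 CPM in flt1mut and 278 and 181 CPM in WT venous-like cells, against 422 and 458 CPM in flt1mut and 473 and 391 CPM in WT arterial-like cells, with no overlap. The log2 fold change of flt1 was -0.81 ± 0.22 (adjusted p = 0.018, edgeR). This call was lost without flt1mut replicate 2 (-0.65, adjusted p = 0.16), without WT replicate 1 (-0.88, adjusted p = 0.057), without WT replicate 2 (-0.71, adjusted p = 0.056) and in the WT libraries alone (-0.83, adjusted p = 0.17, edgeR). With subcluster 7 as the only venous-like cells, it was -1.34 (adjusted p = 5.9e-04, edgeR). Markers on the lymphatic list (7 of 7 with a UMI in both classes) summed to 1139 to 6771 CPM in venous-like cells, against 106.8 to 244 CPM in the arterial-like ones. Of these markers, lyve1b, mrc1a and stab2 are also on the venous list. In lymphatic-like cells the lymphatic list summed to less than the venous-like mean of 3627 CPM, at 828 to 1487 CPM. Prox1a alone averaged 19.9 ± 15.1 CPM in venous-like cells, against 8.95 ± 8.32 CPM in the arterial-like ones (SD, n = 4). Tip cell markers (4 of 4 in both) summed to 112 to 546 CPM in venous-like cells, against 1486 to 4455 CPM in the arterial-like ones. The part of these lists in the flt1 difference was not tested.

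The other receptors overlapped between venous-like and arterial-like cells. Flt4 had a log2 fold change of 0.41 ± 0.25 (adjusted p = 0.31), kdrl of 0.21 ± 0.22 (adjusted p = 0.60) and kdr of -0.27 ± 0.28 (adjusted p = 0.60, edgeR). So 1 of the 4 receptors passed, where 16.4% of 5497 genes did (9.88% higher, 6.53% lower) and 10.0% of those not used to cluster. The value for flt4 depended on which cells counted as venous-like. It was 1.22 (adjusted p = 8.1e-05, edgeR) with cells of 4500 or more genes kept and all cells clustered again, and -0.45 without venous-like subcluster 6, which had 67 of its 90 cells from flt1mut replicate 1 and 2 from WT replicate 2.

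Blood endothelial cells were also ordered, without borders between subclusters, by a venous minus arterial module score and divided within each library into 5 bins of equal size, bin 1 at the arterial end. Along this axis flt1 fell and flt4 rose, while kdrl and kdr did not pass the test. In bin 1 flt1 had 796 and 855 CPM in flt1mut and 643 and 573 CPM in WT cells, and in bin 5 it had 310 and 142 CPM in flt1mut and 221 and 230 CPM in WT cells. All 4 libraries were lower in bin 5, without overlap, and the log2 slope per bin was -0.41 ± 0.06 (adjusted p = 5.5e-06, edgeR). For every gene, this fit treated the 20 sums of bins and libraries as samples. Its p-values measure the scatter of bins within libraries around a common slope, and not the spread of slopes between the 4 libraries. The mean of flt1 over libraries was 717, 459, 300.2, 211 and 226 CPM from bin 1 to bin 5, so that most of the fall lay in the arterial part of the axis.

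Flt4 had 90.7 and 93.2 CPM in flt1mut and 76.1 and 31.9 CPM in WT cells in bin 1, and 166 and 171 CPM in flt1mut and 209 and 172 CPM in WT cells in bin 5. Here too every library moved the same way without overlap, with a log2 slope per bin of 0.33 ± 0.08 (adjusted p = 0.0023, edgeR). The share of all genes without overlap between bins 1 and 5 was not counted. The score that set the bins was drawn from other genes of the same cells. Its mean was 73.0, 126, 182, 195 and 179.6 CPM from bin 1 to bin 5. The slopes of kdrl (-0.04 ± 0.04, adjusted p = 0.50) and kdr (-0.10 ± 0.07, adjusted p = 0.34, edgeR) were small beside these. Of the 4 receptors 2 passed, where 21.8% of 3769 genes did (12.1% higher, 9.71% lower) and 16.2% of those not used to cluster. The slopes of flt1 and flt4 passed in each of the 15 alternatives run, those that left out a library included.

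**Figure D3:**
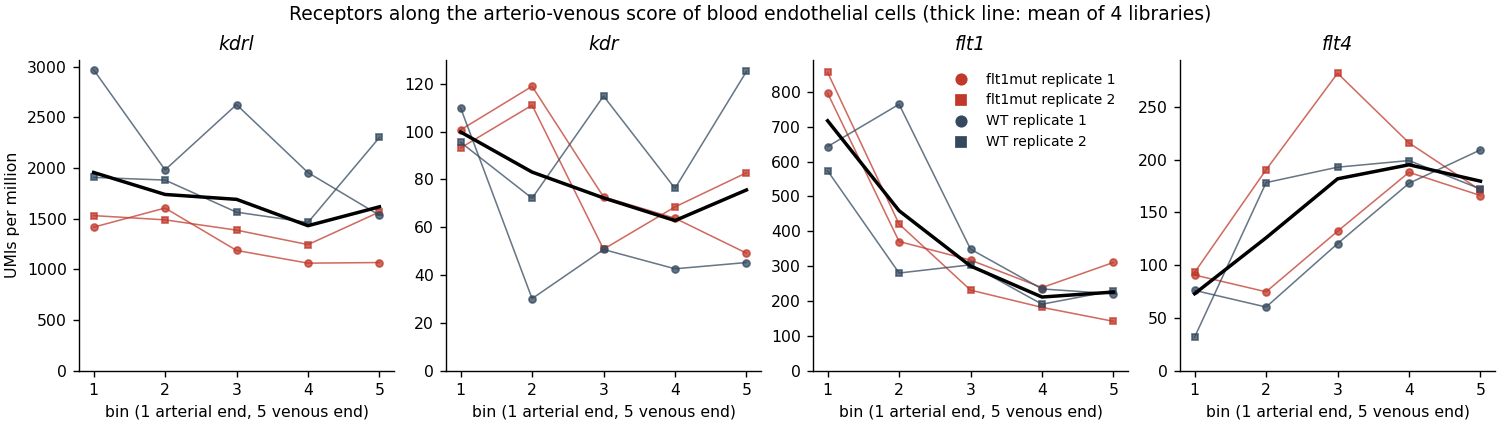
Level of each receptor in CPM, UMIs per 1000000 UMIs (vertical axes from 0) in 5 bins of blood endothelial cells ordered by the venous minus arterial score, 1 thin line per library (red, flt1mut; dark blue, WT; circles, replicate 1; squares, replicate 2) and the mean of the 4 libraries as a thick line. The mean of flt1 was 717 CPM in bin 1 and 226 CPM in bin 5, and the mean of flt4 was 73.0 and 179.6 CPM.

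Finer subclusters of the endothelial cells showed further differences, given here as a description with no test. Flt1 was highest in arterial-like subcluster 11, which was led by genes that include angpt2a and had all 4 tip cell markers, with 939 and 751 CPM in the flt1mut libraries, the only ones with at least 10 of its cells. The same subcluster had 223 and 164 CPM of flt4. Arterial-like subcluster 8, led by rgs5a and lhx8a, held 17.3 ± 13.5 CPM of flt4 and 2293 ± 1086 CPM of kdrl (SD, n = 3 libraries). Flt4 was thus low in 1 arterial-like subcluster and not in the others, since arterial-like subcluster 5, led by her12 and nkx2.3, held 156 ± 24.8 CPM (n = 4).

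Among blood endothelial subclusters the mean of flt4 was highest in unnamed subcluster 0, led by genes such as ch25h and six3a, with 236 ± 52.2 CPM (SD, n = 4). The venous-like subclusters differed from each other. Subcluster 7 had 8 of 9 venous markers, but its leading gene, lyve1a, is on the lymphatic list and none of its 10 leading genes is on the venous list. It had 2183 ± 300 CPM of kdrl, 160 ± 29.7 of flt1 and 79.1 ± 26.8 of flt4 (SD, n = 3). Subcluster 6 had 977 and 1037 CPM of kdrl, 328 and 316 CPM of flt1 and 181 and 154 CPM of flt4, in flt1mut replicate 1 and WT replicate 1.

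Among endocardial-like cells kdrl averaged 372 ± 91.3 CPM in subcluster 2 (n = 4), led by spp1 and alcama, and 763 ± 89.2 CPM in subcluster 4 (SD, n = 3). An unnamed subcluster 9 of 54 cells came from the lymphatic-like cluster and was led by nqo1, with 682 ± 156 CPM of prox1a (n = 2 libraries with at least 10 cells). Like the lymphatic-like cells it was low in kdrl (112 CPM in flt1mut replicate 2 and 266 CPM in WT replicate 2) and in flt1 (26.7 and 29.0 CPM). Its flt4 level (64.1 and 48.3 CPM) lay below that of the lymphatic-like cells in every library, and its kdr level was 144 CPM in flt1mut replicate 2 and 126 CPM in WT replicate 2. With subcluster 9 added to the lymphatic-like cells, the log2 fold change of flt4 over blood endothelial cells was 0.57 (adjusted p = 0.022, edgeR), and at a coarser endothelial clustering it was 0.60 (adjusted p = 0.013, edgeR).

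**Figure D4:**
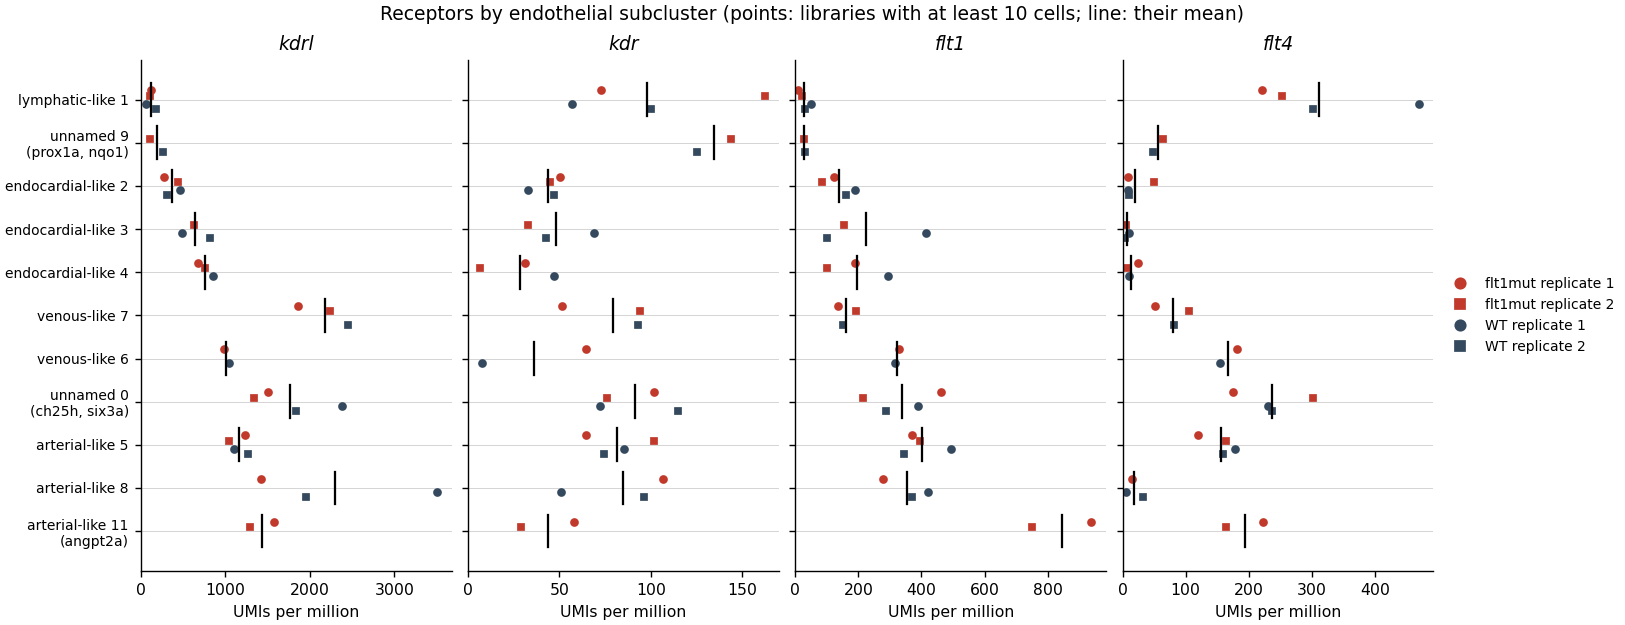
Level of each receptor in CPM, UMIs per 1000000 UMIs (horizontal axes from 0) in 11 endothelial subclusters, 1 point per library with at least 10 cells (red, flt1mut; dark blue, WT; circles, replicate 1; squares, replicate 2) and their mean as a line. Flt4 had a mean of 17.3 CPM in arterial-like subcluster 8 and of 236 CPM in unnamed subcluster 0, and flt1 reached 845 CPM in arterial-like subcluster 11.

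The make-up of the receptor pool can be given as each gene's share of the UMIs of all 4 receptors. In lymphatic-like cells flt4 made up 55.5% ± 12.1, kdrl 21.7% ± 9.08, kdr 18.2% ± 8.89 and flt1 4.59% ± 2.31 (SD, n = 4 libraries). In blood endothelial cells flt4 made up 7.08% ± 1.84, kdrl 73.4% ± 4.78, kdr 3.58% ± 1.07 and flt1 16.0% ± 3.15. Endocardial-like cells were closer to blood endothelial cells than lymphatic-like cells were for kdrl (72.7% ± 6.38), kdr (5.01% ± 0.858) and flt1 (20.7% ± 6.21), with flt4 at 1.59% ± 0.861. A share depends on how well each transcript is captured, so only shares of the same gene are set against each other.

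The shares of cells with a receptor UMI were counted after each cell had been thinned at random to 1000 UMIs, which left out 9 of 405 endocardial-like cells, 44 of 619 blood endothelial cells and 1 of 183 erythrocyte-like cells. Flt4 was found in 22.7% ± 5.30 of lymphatic-like, 1.34% ± 1.54 of endocardial-like and 13.2% ± 3.20 of blood endothelial cells (SD, n = 4 libraries). Kdrl was found in 10.4% ± 7.76 of lymphatic-like, 36.2% ± 4.64 of endocardial-like and 67.3% ± 4.83 of blood endothelial cells. Flt1 was found in 4.90% ± 6.39, 17.5% ± 7.91 and 25.6% ± 3.01 of the same classes, and kdr in 6.67% ± 6.51, 4.80% ± 1.83 and 9.65% ± 4.34. In thinned erythrocyte-like cells kdrl was found in 3 of 182 cells (1.65%, 95% exact Clopper-Pearson interval 0.341% to 4.74%), flt1 in 1, and kdr and flt4 in 0, which allows a share of up to 1.65%. The flt4 share of endocardial-like cells lay under that limit at this depth.

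At the depth as sequenced, with a median of 9845 UMIs in lymphatic-like, 8181 in endocardial-like, 6470 in blood endothelial and 19099 in erythrocyte-like cells, flt4 was found in 67.3% ± 8.52 of lymphatic-like, 5.33% ± 0.737 of endocardial-like and 44.7% ± 6.98 of blood endothelial cells. Kdrl was then found in 37.5% ± 7.93, 83.4% ± 5.93 and 93.9% ± 3.84, flt1 in 13.3% ± 7.32, 56.9% ± 9.33 and 68.2% ± 6.73, and kdr in 51.4% ± 19.5, 26.3% ± 7.32 and 37.9% ± 7.14. Flt4 was found in 0 and kdrl in 6 of 183 erythrocyte-like cells, and the limit of 1.64% that the 0 allows lay below the flt4 share of endocardial-like cells at full depth. Their flt4 level (5.32 to 17.9 CPM) also lay above the limit of 0.899 CPM in erythrocyte-like cells. Both limits pool the libraries, and only 6 of the 183 cells came from WT replicate 2, which had the lowest endocardial-like flt4 level. Erythrocyte-like cells were also deeper, so the same number of free UMIs per cell gives a lower CPM in them. The part of free RNA in the endocardial-like flt4 of each library was not tested. Intervals and limits cover counting error only.

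How often receptors were found in the same cell was set beside the product of their single shares. The product is the share to be had if they fell independently on cells of equal depth. At full depth the cells of a class differ in UMIs, so a share above the product is not read as a link there. No test was made. At full depth a mean of 33.5% of blood endothelial cells had both flt1 and flt4 (32.2% to 36.8% over libraries), and the product of the single shares averaged 30.2%. Kdr and flt4 were found together in 37.2% ± 15.9 of lymphatic-like cells, with a product of 35.6%. After thinning these shares were 2.57% ± 1.31 (product 3.36%) and 3.06% ± 3.54 (product 1.35%, SD, n = 4 libraries).

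To ask whether the receptors changed with the flt1 mutation, flt1mut was compared with WT within each class. In the fit by genotype alone, no receptor passed the test in any class, and neither did any other gene (0.00% of 7779 in blood endothelial, 0.00% of 6224 in endocardial-like and 0.00% of 4257 in lymphatic-like cells). At an unadjusted p under 0.05, edgeR counted 306 of 7779, 339 of 6224 and 137 of 4257 genes in these classes. A share of about 0.05 would be had with no difference at all. DESeq2's Wald test called 1, 8 and 3 genes at an adjusted p under 0.05. With 2 libraries against 2, an exact permutation test of a single value cannot give a two-sided p under 0.333. Nothing in the labels says that the libraries of a genotype came from separate clutches, so the p-values measure the spread between these libraries.

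In blood endothelial cells the receptor nearest to a difference was kdrl, which had 1251 and 1445 CPM in flt1mut, against 2176 and 1801 CPM in WT. These values did not overlap, with a log2 fold change of -0.63 ± 0.28 (adjusted p = 0.999, edgeR). Within this class kdrl was lower without overlap in arterial-like cells (1372 and 1240 CPM in flt1mut, against 2316 and 1542 CPM in WT). The same held in unnamed subcluster 0 (1506 and 1336 CPM, against 2382 and 1835 CPM). Kdrl overlapped in arterial-like subcluster 5 (1228 and 1037 CPM, against 1106 and 1269 CPM). It also overlapped in venous-like cells (1499 ± 619 CPM in flt1mut, against 2042 ± 412 CPM in WT, SD, n = 2 libraries each). These groups are parts of the blood endothelial cells and add no further samples. How many of all genes did not overlap between the genotypes was not counted. Arterial-like subcluster 8 was high in kdrl. It made up 27 of 79 and 9 of 71 arterial-like cells in flt1mut, against 19 of 42 and 12 of 45 in WT. It held 399 of 848 and 151 of 663 arterial-like kdrl UMIs in flt1mut, against 618 of 807 and 366 of 777 in WT. Venous-like subcluster 6 was low in kdrl. It made up 67 of 196 and 9 of 203 blood endothelial cells in flt1mut, against 12 of 87 and 2 of 133 in WT. These counts are for replicates 1 and 2 in this order. The part of both subclusters in the difference was not tested.

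The flt1 transcript itself overlapped between the genotypes in blood endothelial cells, with 377 and 317 CPM in flt1mut, against 403 and 315 CPM in WT (log2 fold change -0.11 ± 0.30, adjusted p = 0.999, edgeR). Flt4 (0.08 ± 0.26) and kdr (0.03 ± 0.29) overlapped between the genotypes as well. The sign of the flt1, flt4 and kdr values in this class turned when single libraries were left out. Tip cell markers (4 of 4 genes with a UMI) summed to 1685 and 2278 CPM in flt1mut, against 1368 and 1159 CPM in WT blood endothelial cells, and their part in the receptor values was not tested.

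In endocardial-like cells flt4 had 16.3 and 17.9 CPM in flt1mut, against 9.56 and 5.32 CPM in WT, from 16 and 13 against 6 and 7 UMIs (log2 fold change 1.22 ± 0.55, adjusted p = 0.93, edgeR). The value was -0.13 with cells of 4500 or more genes kept. The libraries filled the endocardial-like subclusters unevenly, with 57 and 17 cells of flt1mut and 31 and 32 of WT in subcluster 2, 1 and 45 of flt1mut and 14 and 75 of WT in subcluster 3, and 78 and 19 of flt1mut and 27 and 9 of WT in subcluster 4. Of the flt4 UMIs, 12 of 16 in flt1mut replicate 1 came from subcluster 4 and 10 of 13 in flt1mut replicate 2 from subcluster 2. The part of this make-up in the flt4 values was not tested. Flt1 had a log2 fold change of -0.54 ± 0.41, kdr of -0.36 ± 0.32 and kdrl of -0.24 ± 0.25 in this class. In lymphatic-like cells flt1 had 8.81 and 20.3 CPM in flt1mut, against 48.5 and 30.0 CPM in WT (log2 fold change -1.44 ± 0.72, adjusted p = 0.997, edgeR). Flt4 had a log2 fold change of -0.78 ± 0.42, kdrl of -0.37 ± 0.50 and kdr of 0.37 ± 0.51 there.

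The difference of the genotype effect between endocardial-like and blood endothelial cells was tested as an interaction, which 0.0492% of 8137 genes passed (0.0123% higher, 0.0369% lower) and no receptor did. It was 1.22 ± 0.51 on the log2 scale for flt4 (adjusted p = 0.96, edgeR), 0.38 ± 0.21 for kdrl, -0.35 ± 0.39 for kdr and -0.35 ± 0.28 for flt1.

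**Figure D5:**
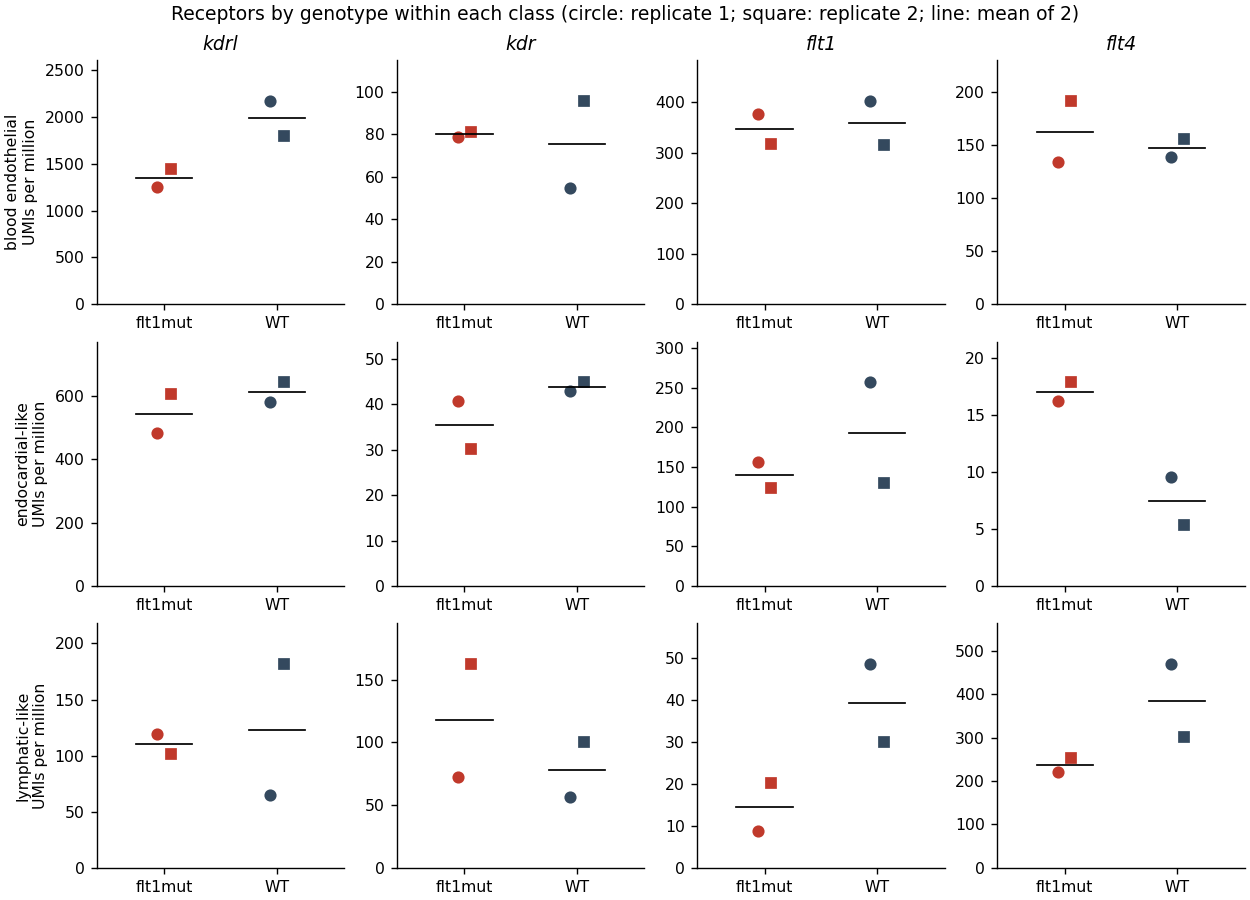
Level of each receptor in CPM, UMIs per 1000000 UMIs (columns; vertical axes from 0) in flt1mut and WT libraries within blood endothelial, endocardial-like and lymphatic-like cells (rows), with replicate 1 as circles, replicate 2 as squares and the mean of the pair as a line. No difference passed the test in the fit by genotype alone. Kdrl in blood endothelial cells (1251 and 1445 CPM in flt1mut, 2176 and 1801 CPM in WT) did not overlap.

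The other genes of the pathway were taken from a list of 33 ligands, co-receptors, processing factors, signal transducers and early response genes. In lymphatic-like cells, 4 of the 19 tested genes were higher and 5 lower than in blood endothelial cells (median log2 fold change -0.20, against -0.02 over all genes), where 8.86% of all 6588 genes were higher and 10.5% lower. Among the co-receptors nrp2a, a co-receptor for Vegfc, was higher (2.49 ± 0.26, adjusted p = 6.6e-08, edgeR), with 108 ± 29.6 CPM in lymphatic-like and 18.9 ± 7.08 CPM in blood endothelial cells. Nrp1a (-3.69 ± 0.41) and nrp1b (-5.21 ± 0.53), co-receptors for Vegfa, were lower, as were the ligand gene vegfc (-3.27 ± 0.51), the receptor phosphatase gene ptprb (-1.32 ± 0.20) and the early response gene hlx1 (-2.56 ± 0.26). The lipid kinase gene pik3ca (1.26 ± 0.25) and the early response genes nr4a1 (0.92 ± 0.18) and rcan1a (1.28 ± 0.22) were higher.

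In endocardial-like cells 4 of the 20 tested genes were higher and 7 lower than in blood endothelial cells (median -0.11, against -0.01 over all genes), where 14.3% of all 8048 genes were higher and 13.4% lower. Of the 4 co-receptors 3 were lower, nrp1b (-0.96 ± 0.21), nrp2a (-2.21 ± 0.54) and nrp2b (-2.52 ± 0.19). Lower as well were the ligand gene pgfb (-4.07 ± 0.61), ptprb (-1.31 ± 0.15), plcg1 (-1.14 ± 0.18), which encodes a phospholipase downstream of the receptors, and hlx1 (-5.77 ± 0.35). Higher were the kinase gene src (1.52 ± 0.43) and the early response genes egr3 (4.33 ± 0.22), nr4a1 (0.59 ± 0.13) and rcan1a (1.33 ± 0.13).

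In venous-like cells 3 of the 19 tested genes were lower than in arterial-like cells (median of the list 0.28, against -0.03 over all genes), where 6.53% of all 5497 genes were lower. Nrp2b was higher (2.80 ± 0.24, adjusted p = 2.2e-07, edgeR), at 293 ± 118 CPM in venous-like cells, against 43.2 ± 17.4 CPM in arterial-like cells (SD, n = 4), and so was nr4a1 (1.24 ± 0.23). The lower genes were vegfc (-3.92 ± 0.54), pgfb (-3.76 ± 0.82) and nrp1a (-1.31 ± 0.28). Along the 5 bins 3 of the 16 tested genes rose, nrp2b (0.97 ± 0.10 per bin), pik3ca (0.35 ± 0.11) and nr4a1 (0.32 ± 0.06), and 3 fell, vegfc (-1.05 ± 0.14), nrp1a (-0.31 ± 0.08) and nrp1b (-0.32 ± 0.07), with a list median of 0.07, where 12.1% of all 3769 genes rose and 9.71% fell. No gene of the list passed between flt1mut and WT in the fit by genotype alone, with 19 tested in blood endothelial, 17 in endocardial-like and 14 in lymphatic-like cells.

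The genes most like each receptor were found over 57 sums of named classes and libraries, as the Pearson correlation of log2(CPM + 10) among 4805 genes with a mean of at least 20 CPM. For kdrl they were cdh5 (r = 0.97), flt1 (0.96), pecam1 (0.96), clec14a (0.96) and dll4 (0.95). For flt1 they were kdrl (0.96), pecam1 (0.95), cdh5 (0.94), s1pr5a (0.94) and dll4 (0.93). For kdr they were rasip1 (0.97), gask1b (0.96), si:dkeyp-97a10.2 (0.96), tie1 (0.96) and she (0.96), and for flt4 rgs5b (0.94), DAB2 (0.93), stab1 (0.93), etv2 (0.93) and rasip1 (0.93). The sums share libraries and include endothelial and other cells, so these values are a description. Over the 16 endothelial sums alone, kdrl and flt1 had r = 0.87 and kdr and flt4 had r = 0.53, while kdrl and flt4 had r = -0.32 and flt1 and flt4 had r = -0.35.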

How the data were processed

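The authors aligned 10x Genomics 3′ reads with Cell Ranger 6.1.1 to GRCz11 and deposited raw UMI counts per gene and called cell, without normalization. The labels and the study's methods name different 10x chemistry versions. The genotype of each library was taken from its labels.

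Cells with over 200 and under 4500 genes and under 5% mitochondrial UMIs were kept, as in the study's methods, and clustered with Seurat 5.3.0 (R 4.3.3; 2000 variable genes without the receptors and their pathway list, 20 principal components, resolution 0.5, and 1 within the endothelium). A name needed at least 3 markers. The arterial and venous names rest on the share of each marker list. These naming rules were set after the clusters had been seen. Subcluster 9, from the lymphatic-like cluster, was left out of the tests because it could not be named, although the written plan would have counted it as blood endothelial. Scrublet (scanpy 1.11.5) called 5 to 9 doublets per library, too few to rely on, so none were removed.

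UMIs were summed per class and library (at least 10 cells) and tested with edgeR 4.0.16 (TMM, filterByExpr, quasi-likelihood F test, Benjamini-Hochberg over all genes, threshold 0.05), with library as a block between classes. Marker genes that named a class were left out of the test between classes. Sums per class held 123645 to 1418430 UMIs, and the least deep of these was the lymphatic-like sum of WT replicate 1 (14 cells). Sums per bin held 99462 to 374305 UMIs. CPM were not TMM-scaled. The code was tested on simulated data. There the fits by genotype recovered 4.04%, 3.16% and 2.17% of genes with a true log2 change of 1 (blood endothelial, endocardial-like and lymphatic-like cells). At a true log2 change of 2 they recovered 46.4%, 62.2% and 29.8%. Named genes were the 4 receptors, the pathway genes that passed a test, and the 5 genes most like each receptor. One result of the pathway list, among the genes higher in venous-like cells, is not reported here. The receptors and gene lists were chosen with earlier results of these data known. Alternatives covered left-out libraries, DESeq2 1.42.0, filters, clustering resolution, bins, thinning depth and genotype subsets.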

Additional observations from a re-analysis of the deposited data

Results flagged for a closer look

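For 2 receptors the flt1mut and WT libraries did not overlap in either of 2 classes, and the genotypes stood in opposite order in them. How many of all genes showed such an order was not counted, so it cannot be called unusual. With 2 libraries against 2, values without overlap reach only a two-sided p of 0.333 in an exact permutation test of a single value. In arterial-like cells kdr averaged 82.4 ± 0.177 CPM in flt1mut and 73.7 ± 10.9 CPM in WT (SD, n = 2 libraries). The nearest libraries there almost met, with 44 of 534875 UMIs in flt1mut replicate 2 and 41 of 504029 in WT replicate 2. In endocardial-like cells kdr rested on 40 and 22 UMIs in flt1mut and 27 and 59 UMIs in WT. The ratio of the flt1mut mean to the WT mean of kdr was 1.12 in arterial-like cells and 0.807 in endocardial-like cells, and the difference between these was not tested. The same ratio for flt4 was 2.30 in endocardial-like cells and 0.613 in lymphatic-like cells. The difference of the genotype effect on flt4, lymphatic-like minus endocardial-like, was -1.93 ± 0.58 on the log2 scale (adjusted p = 0.22 by Benjamini-Hochberg in the quasi-likelihood test of edgeR, where 0.301% of 6320 genes passed). This test was chosen after seeing the data. The flt4 values of endocardial-like cells rest on 16 and 13 UMIs in flt1mut and 6 and 7 UMIs in WT.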

How the results depend on the processing

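The receptor calls of the endocardial-like (13 alternatives) and lymphatic-like (14 alternatives) comparisons and the flt1 and flt4 slopes (15 alternatives) kept their direction and stayed past the threshold throughout. The venous-like against arterial-like value of flt1 was -0.98 to -0.65 with 1 library left out and -0.83 in WT alone, where it was not past the threshold. With no upper limit on genes per cell and all cells clustered again, flt4 passed in that comparison (1.22) and kdr was 0.16 there. The venous-like class then held a subcluster of 161 cells led by zgc:158423, a gene that leads unnamed subcluster 0 in the main clustering. Under the same setting kdrl passed along the bins (-0.094), and flt4 was -0.13 for flt1mut against WT in endocardial-like cells. Without venous-like subcluster 6, kdr was 0.080 and flt4 -0.45.

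For flt1mut against WT, leaving out 1 library gave -0.24 to 0.40 for kdr, -0.35 to 0.17 for flt1 and -0.10 to 0.24 for flt4 in blood endothelial cells, -1.03 to 0.13 for flt1 in endocardial-like cells, and -0.86 to 0.71 for kdrl and -0.28 to 0.96 for kdr in lymphatic-like cells. In blood endothelial cells kdr was -0.013 and flt4 -0.012 at resolution 0.5, and kdr was -0.015 at resolution 1.5 and -0.021 without shallow subcluster 10. None of these passed.

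Replicate numbers are shared between genotypes, but no label ties a number to a batch. Deviations of same-numbered libraries had r = 0.407, 0.427 and 0.309 in blood endothelial, endocardial-like and lymphatic-like cells, the same for both numbers by construction. With the replicate block kdrl in blood endothelial cells was -0.62 (adjusted p = 0.030, edgeR), and 163, 6 and 3 genes passed in these classes, against 0 without it.

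Counts of genes past the threshold moved by over 1.5 times as follows. In WT alone they were 701 (lymphatic-like against blood endothelial), 303 (venous-like against arterial-like) and 248 (slope), against 1276, 902 and 822. With 1 library left out they were 414 to 777 for venous-like against arterial-like cells and 487 to 729 for the slope, and as high as 91, 106 and 34 for flt1mut against WT in blood endothelial, endocardial-like and lymphatic-like cells and 56 for the interaction (4 with all libraries). DESeq2 gave 519 for venous-like against arterial-like cells and 1, 8 and 3 for the genotype. No filter gave 70, 84 and 18, resolution 0.5 gave 1 in blood endothelial cells, and leaving out the endocardial-like subcluster with 1 cell of flt1mut replicate 1 gave 2.

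At 2000 UMIs per cell kdrl, kdr, flt1 and flt4 were found in 86.3%, 14.9%, 42.2% and 22.5% of blood endothelial cells, and flt1 with flt4 in 8.88%. In endocardial-like cells kdrl, kdr and flt1 were found in 56.5%, 9.69% and 28.5%, and in lymphatic-like cells kdrl, kdr and flt4 in 18.6%, 14.8% and 36.2%, and kdr with flt4 in 6.98%. Without thinning the shares were 93.9%, 37.9%, 68.2%, 44.7% and 33.5%, then 83.4%, 26.3%, 56.9% and, for flt4, 5.33%, and then 37.5%, 51.4%, 67.3% and 37.2%, with flt1 at 13.3%. Flt1 in lymphatic-like cells and flt4 in endocardial-like cells had at most 18 UMIs in every library. Single libraries were as low elsewhere. In WT replicate 1 kdr had 4 UMIs in venous-like cells and 7 in lymphatic-like cells, where kdrl had 8.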
